A study of Mus musculus with 6 samples.

Results

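The adenylyl cyclase genes *Adcy1*, *Adcy2*, *Adcy5*, *Adcy8* and *Adcy9* and the Mef2 transcription factor genes *Mef2a*, *Mef2c* and *Mef2d* were followed across the cell types of the mouse cortex on postnatal day 5. They are 8 of the 17418 genes of the count table. The set was chosen by measured values, namely the p-values of *Fmr1*-KO against WT interneurons, where *Adcy1* and *Mef2c* had the smallest of any gene. Every value of that comparison is therefore given as a description without a test, and the question asked of the other data was whether the levels of both genes went with the kinds of interneuron present or with their maturity.

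The study profiled the cortex of 3 mice per genotype by InDrop, a droplet method that tags the 3′ end of each transcript with a cell barcode and a unique molecular identifier (UMI). WT mice were FVB.129P2-Pde6b+ Tyrc-ch/AntJ and *Fmr1*-KO mice were FVB.129P2-Pde6b+ Tyrc-ch Fmr1tm1Cgr/J, in which the knockout allele is carried by every cell of the body. Both genotypes thus shared the Pde6b+ and Tyrc-ch alleles and the FVB background, and both sexes were used. The cortex of both hemispheres was dissociated with papain. Batch was taken from the version of the barcoding beads, as the labels give no day of collection. WT 1, *Fmr1*-KO 1 and *Fmr1*-KO 2, made with version 2, are called batch 1. WT 2, WT 3 and *Fmr1*-KO 3, made with version 3.8, are called batch 2. Bead version and anything else that differed between these groups of mice cannot be told apart.

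After the 1113 doublets of the authors' annotation were left out, 17280 cells in 18 subtypes remained, and the mice had from 8070039 to 20677233 UMIs. Of 15463 barcode sequences, 2231 occurred in more than 1 of the 17 libraries, and cells were therefore told apart by barcode and library together. Levels are CPM, the UMIs of a gene per 1000000 UMIs summed over the cells of one subtype of one mouse. *Fmr1* was at 70.9 ± 9.0 CPM (SD, n = 3) in WT and 19.1 ± 7.08 CPM in *Fmr1*-KO interneurons, with each knockout mouse below each WT mouse. Tags at the 3′ end do not read the altered part of the gene itself. The interneuron subtype carried *Gad1* (364 CPM, against 57.4 in excitatory neurons) and little *Slc17a7* (3.66 CPM, against 175), the vesicular glutamate transporter.

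Adenylyl cyclases make the second messenger cAMP from ATP. *Adcy1* and *Adcy8* encode enzymes that calcium and calmodulin stimulate, *Adcy2* an enzyme that G protein beta-gamma subunits stimulate together with Gs, *Adcy5* the main striatal enzyme, which calcium inhibits, and *Adcy9* a widespread enzyme that responds little to forskolin. cAMP acts on protein kinase A, on exchange factors for Rap and, through CREB and its partners, on transcription. Mef2 factors bind A/T-rich elements in genes of muscle, neurons and immune cells, and calcineurin and class IIa histone deacetylases control their activity. In the brain *Mef2c* is known for its part in neuronal differentiation and in the number of synapses, and in the cortex *Adcy1* is known for the refinement of sensory maps.

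The members lie on 6 autosomes of mm10. Those of the results below are *Adcy1* (chr11:7063489-7178506, plus strand), *Mef2c* (chr13:83504034-83667080, plus), *Mef2a* (chr7:67231163-67372858, minus), *Adcy5* (chr16:35154877-35305738, plus), *Adcy8* (chr15:64697084-64922296, minus) and *Adcy9* (chr16:4287529-4420498, minus). Because *Adcy1* and *Mef2c* were high in the same interneurons, the 250 bases before their RefSeq starts are shown (GRCm38.p6, both on the plus strand, chr11:7063183-7063432 and chr13:83503784-83504033, the first of 3 *Mef2c* starts), with a 30-base stretch across the start of *Mef2a* (chr7:67372841-67372870, minus strand) in which capitals mark a match to the Mef2 motif.
Adcy1: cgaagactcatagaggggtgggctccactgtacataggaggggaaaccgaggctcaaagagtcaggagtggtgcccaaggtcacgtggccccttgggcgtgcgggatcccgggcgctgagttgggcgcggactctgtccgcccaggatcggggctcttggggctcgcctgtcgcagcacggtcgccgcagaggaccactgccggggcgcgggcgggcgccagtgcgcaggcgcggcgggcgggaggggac
Mef2c: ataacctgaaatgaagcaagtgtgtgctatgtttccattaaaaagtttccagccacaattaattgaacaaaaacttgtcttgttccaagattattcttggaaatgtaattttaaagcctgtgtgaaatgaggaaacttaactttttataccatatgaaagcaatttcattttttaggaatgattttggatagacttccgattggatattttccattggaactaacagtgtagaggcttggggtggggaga
Mef2a: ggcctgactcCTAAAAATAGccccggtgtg
The windows differed in composition, with 74% G or C bases at *Adcy1* and 35.7% at *Mef2c* over the 300 bases from 250 before to 50 after the start, against a median of 52.7% over all 32851 RefSeq windows. The Mef2 motif (CTA, any 4 bases, TAG), read on both strands, was in the window of *Mef2a*, beginning at position -2, and in 3.69% of all windows. The cAMP response element TGACGTCA was in none of the 9 windows of the 7 members that had one, and in 1.79% of all windows. Its shorter form TGACG, which lies within the full element, was in the window of *Adcy9* and in 20.8% of all windows.

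*Adcy1* was highest in excitatory neurons. Their level was 1031, 731 and 864 CPM in WT 1, 2 and 3 and 1142, 1100 and 711 CPM in *Fmr1*-KO 1, 2 and 3, a mean of 930 ± 187 CPM (SD, n = 6). Cajal-Retzius cells (CR), early neurons of the cortical surface, followed with 406 ± 129 CPM in the 5 mice with at least 10 such cells, and interneurons with 357 ± 299 CPM. The gap between excitatory neurons and Cajal-Retzius cells was 2.79 times the larger of their SDs, whereas that between Cajal-Retzius cells and interneurons was 0.163 times. Fibroblasts had 133 to 180 CPM in the 3 mice with enough cells and OPC_1, the main precursors of oligodendrocytes, 75.6 ± 25.0 CPM. The other 10 subtypes with at least 4 mice had means between 18.2 and 48.8 CPM, and no neighbours among them were further apart than the larger SD.

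*Mef2c* was also highest in excitatory neurons, at 1577, 2373 and 2351 CPM in WT 1 to 3 and 1417, 1557 and 2583 CPM in *Fmr1*-KO 1 to 3, and every later set of values follows this numbering. The 3 mice of batch 2 were all above the 3 mice of batch 1. Their excitatory neurons also had more UMIs per cell, with medians of 2005 to 8588 against 976 to 1041.5. The summed level of 7 excitatory neuron markers was higher in them, at 4753 to 5476 against 2752 to 3279 CPM. That of 6 interneuron markers was lower, at 96.4 to 147 against 684 to 832 CPM. The part of depth and of this makeup in the levels was not tested. Microglia came second with 580 to 985 CPM (mean 745 ± 144, SD, n = 6), then interneurons with 613 ± 345 CPM and pericytes with 304 ± 82.6 CPM. Microglia and interneurons differed by 0.383 times the larger SD, and interneurons and pericytes by 0.896 times. Cajal-Retzius cells, high in *Adcy1*, had only 18.9 ± 18.4 CPM of *Mef2c* (n = 5), so that the pair was not high together in every kind of neuron. Over the 15 subtypes of at least 50 cells, Pearson's r of log2(CPM + 1) was 0.36 for *Adcy1* and *Mef2c*, as a description of points that share libraries and depth.

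**Figure D1:**
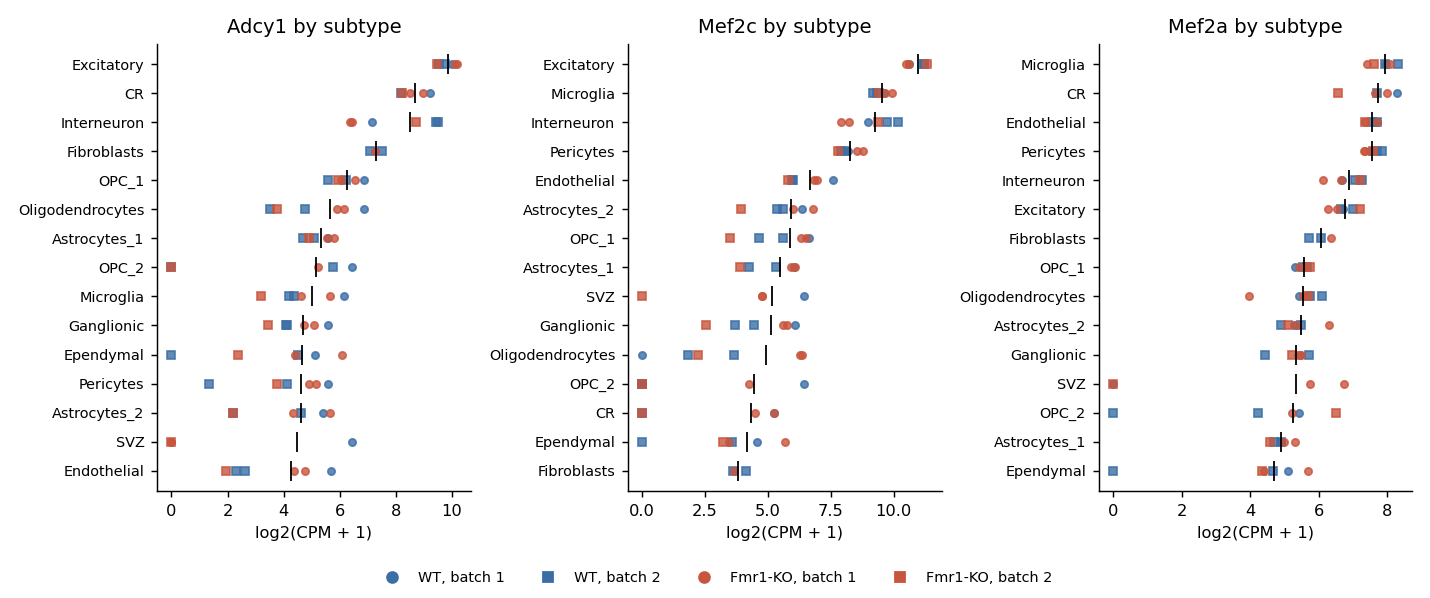
Levels of *Adcy1*, *Mef2c* and *Mef2a* in each subtype as log2(CPM + 1), with 1 point per mouse of at least 10 cells (colour for genotype, circle for batch 1, square for batch 2) and a vertical tick at the log of the mean CPM. Excitatory neurons lead for *Adcy1* and *Mef2c*, microglia lead for *Mef2a*, and the points of interneurons spread widely for *Adcy1* and *Mef2c*.

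*Mef2a*, unlike *Mef2c*, was not highest in excitatory neurons. Microglia had 240 ± 52.9 CPM, Cajal-Retzius cells 211 ± 79.9, endothelial cells 188 ± 21.8 and pericytes 187 ± 26.9 CPM, and neighbours in this order lay within the larger SD of each other. Pericytes were above interneurons (116 ± 32.1 CPM) by 2.21 times the larger SD, and excitatory neurons (107 ± 24.6 CPM) above OPC_1 (46.0 ± 4.84 CPM) by 2.48 times. *Mef2d* had only 792 UMIs in all cells and means of at most 27.5 CPM in the subtypes with at least 4 mice, where no neighbours were apart by more than the larger SD.

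The remaining cyclases were low in most subtypes. *Adcy2* was highest in Astrocytes_1, the main astrocyte subtype, at 84.3 ± 19.1 CPM (54.9 to 111 CPM over 6 mice), above excitatory neurons (56.1 ± 12.6 CPM) by 1.47 times the larger SD. *Adcy5* had 115, 136 and 186 CPM in fibroblasts of WT 2, WT 3 and *Fmr1*-KO 2, the mice with enough of these cells, and 73.2 ± 22.5 CPM in excitatory neurons. *Adcy8* was highest in Cajal-Retzius cells (84.5 ± 31.6 CPM, n = 5), followed by excitatory neurons (27.5 ± 6.79 CPM) and Astrocytes_1 (20.6 ± 5.42 CPM). *Adcy9* was spread thinly, from 3.54 ± 2.56 CPM in ganglionic eminence cells to 47.5 ± 11 CPM in excitatory neurons and 64.3 ± 63.4 CPM in SVZ cells, where 4 mice had only 10 UMIs in all.

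Among the genes with the most similar profiles over the 15 subtypes, of 12332 genes with at least 20 CPM in 1 of them, were *Lgi2* (r = 0.91) and *Ckmt1* (0.90) for *Adcy1* and *Lpl* (0.82), *Hs3st2* (0.81) and *Ptk2b* (0.81) for *Mef2c*. For *Mef2a* they were *Psme2b* (0.91), *Sh3bgrl3* (0.89) and *Usp12* (0.88), and for *Mef2d* *Nrp1* (0.82), *Sh2b3* (0.81) and *Mafk* (0.80). *Adcy2* was closest to *Gabbr1* (0.88), *Adcy8* (0.87) and *Serpina3n* (0.85), and *Adcy8* to *Rhbdl1* (0.89), *Serpina3n* (0.88) and *Cyp46a1* (0.88). *Adcy5* was closest to *St3gal3* (0.87), *Dact3* (0.84) and *Trim62* (0.83), and *Adcy9*, with the lowest values, to *Becn1* (0.74), *Wsb2* (0.73) and *Lamtor4* (0.72).

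In interneurons *Adcy1* was at 141, 684 and 729 CPM in WT 1, 2 and 3 and at 84.6, 82.2 and 423 CPM in the knockout mice 1, 2 and 3. The groups overlapped: *Fmr1*-KO 3 lay above WT 1, and the 3 mice of batch 2 lay above the 3 of batch 1. *Mef2c* was at 499, 1138 and 852 CPM in the WT mice and at 293, 235 and 661 CPM in the *Fmr1*-KO mice, with the same order of batches and the same overlap. Within each batch each knockout mouse was below each WT mouse for both genes. The log2 ratio of knockout to WT within batch 1 and batch 2 was -0.75 and -0.74 for *Adcy1* and -0.91 and -0.59 for *Mef2c*.

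With batch in the model the log2 difference of knockout from WT was -0.75 (SE 0.14) for *Adcy1* and -0.73 (SE 0.13) for *Mef2c*. These values were the ground for choosing the genes and carry no evidence of their own. Of the 3177 genes compared in interneurons 0% were called by the rule used throughout (FDR by Benjamini-Hochberg under 0.01, change of 1.15-fold or more). In 4% of these genes every knockout mouse lay below every WT mouse. In CPM this held for 0 of the 8 members, of which only 3 were among the genes compared. *Mef2a*, the only other member with a UMI in at least 15% of interneurons, had a log2 difference of -0.11 (SE 0.19), with 101, 131 and 151 CPM in the WT and 98.2, 68.9 and 147 CPM in the *Fmr1*-KO mice. *Adcy2*, *Adcy5*, *Adcy8*, *Adcy9* and *Mef2d* did not reach that share and had 63, 68, 13, 62 and 20 UMIs in all interneurons. Without the batch term the differences were -1.39 for *Adcy1* and -1.05 for *Mef2c*, and with every cell thinned to 700 UMIs -0.98 and -0.27.

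Few interneurons held these transcripts. In cells thinned to 700 UMIs *Adcy1* was seen in 6.85% of the 1109 interneurons (95% exact binomial interval 5.44 to 8.5%) and *Mef2c* in 15.3% (13.3 to 17.6%), against 38.2% and 51.8% of excitatory neurons. Without thinning the shares of interneurons were 17.4% and 30.1%. As background from free RNA, the thinned shares were 0.784% and 1.57% in ependymal cells and 3.68% and 2.55% in oligodendrocytes, at medians of 4596 and 3303 UMIs per cell against 2469 in interneurons. In the batch 1 mice WT 1, *Fmr1*-KO 1 and *Fmr1*-KO 2 the *Adcy1* share of oligodendrocytes was 12, 12.5 and 7.89%, from 24 to 38 cells. Each was above the share of the interneurons of the same mouse. In ependymal cells of these mice the share was 0, 16.7 and 0%, from 12 to 39 cells. The oligodendrocyte and ependymal shares thus disagreed in batch 1. Whether the *Adcy1* shares of interneurons there were above background was not tested, nor whether oligodendrocytes made the transcript themselves. The thinned share for *Adcy1* was 7.21, 11.9 and 10.1% in the WT and 4.39, 5.73 and 5.73% in the *Fmr1*-KO mice, with intervals that overlapped between all 6 mice. That for *Mef2c* was 19.7, 11.9 and 11.3% and 14.9, 13.5 and 15.3%, without an order between the genotypes.

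**Figure D2:**
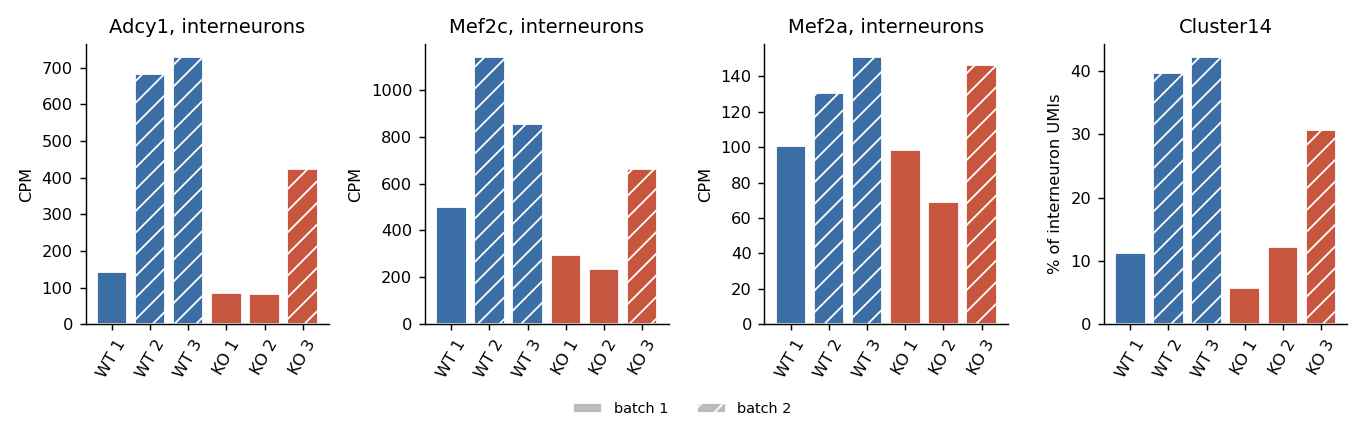
Levels of *Adcy1*, *Mef2c* and *Mef2a* in interneurons (CPM) and the share of interneuron UMIs from Cluster14 (percent) in each mouse, with WT in blue, *Fmr1*-KO in red and batch 2 hatched. *Adcy1* and *Mef2c* and the Cluster14 share are each higher in the 3 batch 2 mice than in the 3 batch 1 mice.

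The authors divided interneurons into 4 clusters. Cluster14, with 93 of 1109 cells (8.39%) and 19.1% of the UMIs, carried *Lhx6* (337 CPM), *Nxph1* (565), *Sst* (291) and *Npy* (294), genes of interneurons born in the medial ganglionic eminence (MGE), and little *Meis2* (12.7 CPM). The 8 MGE markers summed to 2908 CPM there against 355 to 507 CPM elsewhere. The 7 markers of interneurons from the caudal ganglionic eminence (CGE) summed to 745 CPM against 268 to 289 CPM, but disagreed by gene. *Cxcl14* (306 CPM), *Vip* (194), *Npas1*, *Nr2f2* and *Prox1* were highest in Cluster14. *Htr3a* was lowest there (6.37 CPM against 51.3 to 141), and *Adarb2* (20.7 CPM) was below Cluster10 (42.1) and Cluster9 (34.4). The other clusters had 1553 to 2036 CPM of *Meis2*, a gene of neurons from the lateral ganglionic eminence (LGE) such as those bound for the olfactory bulb, and at most 40.0 CPM of *Lhx6*. Most cells under the interneuron label thus lay in clusters with little of the MGE markers. The summed level of 12 genes of mature neurons was 5547 CPM in Cluster14, 2414 in Cluster10, 873 in Cluster9 and 738 in Cluster3, and that of 11 genes of immature interneurons ran the opposite way, from 6197 to 24058 CPM.

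*Adcy1* and *Mef2c* were at a higher level in Cluster14 than in each other cluster. *Adcy1* had 1154 CPM there and 106, 48.7 and 49.6 CPM in Cluster10, Cluster9 and Cluster3, and *Mef2c* had 1837 CPM there and 369, 215 and 90.2 CPM. Pooled over mice, Cluster14 held 79.6% of the *Adcy1* UMIs and 67.6% of the *Mef2c* UMIs of all interneurons. By mouse this share was lower in batch 1 than in batch 2. For *Adcy1* it was 29.6, 96.4 and 96.0% in the WT and 33.9, 48.8 and 92.0% in the *Fmr1*-KO mice. For *Mef2c* it was 46.0, 92.9 and 93.1% and 32.1, 30.9 and 86.5%. *Mef2a* was at 258 CPM in Cluster14 and at 57.3 to 97.5 CPM in the others. Since the clusters were made from the expression of these same cells, the differences between them are a description. The 7 excitatory neuron markers summed to 113 CPM in Cluster14, less than in the other clusters (162 to 508 CPM) and than in excitatory neurons (4342 CPM). The part of excitatory neuron transcripts in the high levels was not tested. Median UMIs per cell were 5092 in Cluster14, 2975 in Cluster3, 2722 in Cluster10 and 1126 in Cluster9.

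The share of Cluster14 was higher in each mouse of batch 2 than in each of batch 1, whereas the genotypes overlapped. Cluster14 supplied 11.2, 39.6 and 42.2% of the interneuron UMIs in WT and 5.70, 12.3 and 30.7% in knockout mice. In cells this was 20, 10 and 23 in the WT and 5, 13 and 22 in the *Fmr1*-KO mice. Within Cluster14 *Adcy1* was at 374, 1664 and 1659 CPM in the WT and 503, 328 and 1266 CPM in the *Fmr1*-KO mice, so that the higher level of batch 2 was also present inside the cluster. *Mef2c* was at 2050, 2669 and 1882 CPM and at 1653, 593 and 1861 CPM, where each knockout mouse was below each WT mouse by a margin that for *Fmr1*-KO 3 and WT 3 was small. These last values rest on 38 to 405 UMIs of *Mef2c* and 21 to 357 of *Adcy1* per mouse.

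**Figure D3:**
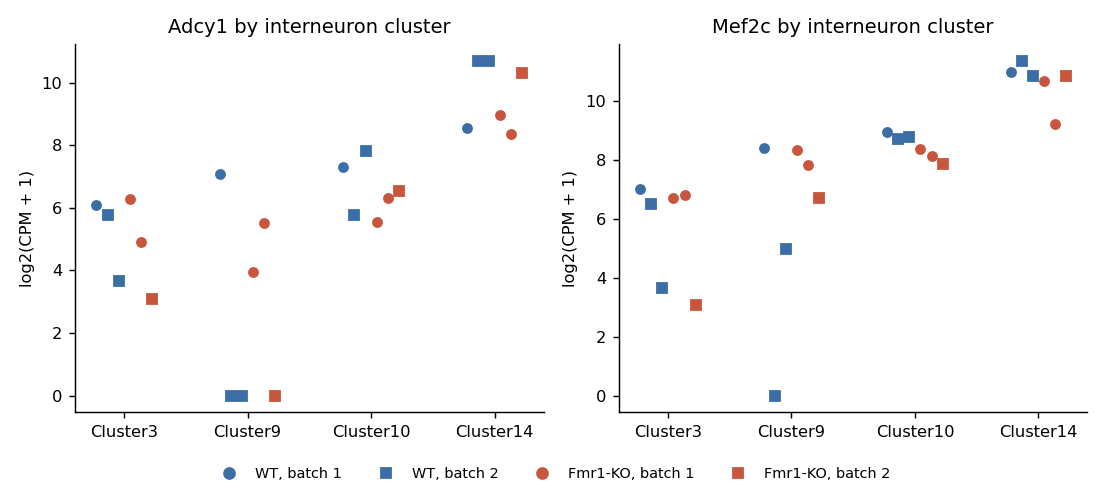
Levels of *Adcy1* and *Mef2c* as log2(CPM + 1) in the 4 interneuron clusters of the authors, 1 point per mouse, with blue for WT, red for *Fmr1*-KO, circles for batch 1 and squares for batch 2. Cluster14 lies above the other clusters in each mouse for both genes, and the batch 2 mice lie above the batch 1 mice for *Adcy1* within it.

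To test the class of interneuron directly, each interneuron was given to the list of markers (MGE, LGE and olfactory, CGE, striatal) from which it had most UMIs, with at least 2 and no tie, and the classes were compared within the mice with the mouse as a block. The MGE class had 110 cells, 60% of them in Cluster14, the LGE and olfactory class 855, the CGE class 41 and the striatal class 19. *Adcy1* was at 292, 1628 and 1971 CPM in MGE-class cells of the WT mice and 544, 223 and 1313 CPM in those of the *Fmr1*-KO mice, and at 111, 48.7 and 56.6 and 53.6, 43.9 and 43.4 CPM in LGE-class cells. In each of the 6 mice the MGE class was higher. Pooled over mice, the small CGE class had 271 CPM of *Adcy1* and 415 CPM of *Mef2c* and the striatal class 212 and 762 CPM, between the LGE class (66.4 and 168 CPM) and the MGE class (1150 and 1878 CPM). This order did not hold in each mouse. CGE-class *Adcy1* in *Fmr1*-KO 3 (24.2 CPM, 11 cells), CGE-class *Mef2c* in *Fmr1*-KO 1 (82.0 CPM, 8 cells) and striatal *Adcy1* in WT 1 (97.2 CPM, 10 cells) were below the LGE class of the same mouse (43.4, 194 and 111 CPM). The other values computed by mouse for these classes lay between.

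*Adcy1* was higher in the MGE class than in the other classes together by 3.03 on the log2 scale (SE 0.25, edgeR FDR = 5.6e-17), *Mef2c* by 3.01 (SE 0.21, edgeR FDR = 2.7e-21) and *Mef2a* by 1.74 (SE 0.27, edgeR FDR = 4.3e-07), in the 5 mice with at least 10 cells of each kind (WT 2 had 9 MGE-class cells and was left out). Thus 3 of the 4 members tested were called, where 7.45% of all 7311 genes were called, 4.06% higher and 3.39% lower. *Adcy5* was higher by 1.30 (SE 0.54, edgeR FDR = 0.10) and was not called. In LGE-class against other cells *Adcy1* was lower, with a log2 difference of -3.26 (SE 0.34, edgeR FDR = 1.0e-06), as were *Mef2c* (-3.14, SE 0.28, edgeR FDR = 1.3e-07) and *Mef2a* (-1.51, SE 0.28, edgeR FDR = 6.4e-04), with 8.12% of genes called, 4.91% lower and 3.21% higher. The 2 comparisons share most of their cells. After thinning to 700 UMIs the call of *Mef2a* in the MGE class was lost (log2 difference 1.55, edgeR FDR = 0.49).

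The same members were also higher in more mature interneurons. Interneurons were ranked by the share of the 12 mature neuron genes in the UMIs of mature and immature genes together, divided into 3 groups of like size, and the most mature group was compared with the least mature within the 6 mice. *Adcy1* rose by 3.52 on the log2 scale (SE 0.38, edgeR FDR = 1.4e-10), *Mef2c* by 3.11 (SE 0.30, edgeR FDR = 7.7e-12) and *Mef2a* by 1.35 (SE 0.28, edgeR FDR = 1.4e-04). The background was broad here, as 19.7% of 7305 genes were called, 11.9% higher and 7.79% lower. *Adcy5* had a log2 difference of 1.83 (SE 0.57, edgeR FDR = 0.012), just outside the rule. In the least mature group *Adcy1* did not exceed 83.6 CPM in any mouse, and in the most mature group it was at 201, 1207 and 1376 CPM in the WT and 138, 159 and 759 CPM in the *Fmr1*-KO mice. The thinned cells did not give a call for *Mef2a* (log2 difference 1.11, edgeR FDR = 0.11).

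Class and maturity were bound together in these cells, since 82 of the 110 MGE-class cells and 92 of the 93 cells of Cluster14 fell in the most mature group. Where both could be looked at, pooled over mice and without a test, MGE-class cells of the most mature group had 1293 CPM of *Adcy1* and 2115 CPM of *Mef2c*, and LGE-class cells of the same maturity group 113 and 298 CPM. In each mouse the MGE class was above the LGE class within this group for both genes, in *Fmr1*-KO 2 with 246 against 79.0 CPM of *Adcy1* from 7 and 11 UMIs. Across the maturity groups of the LGE class *Adcy1* went from 38.3 over 54.4 to 113 CPM and *Mef2c* from 103 over 122 to 298 CPM. The 28 MGE-class cells outside the most mature group had 3 and 5 UMIs of *Adcy1* and 3 and 8 of *Mef2c*, in the least mature and the middle group. In these pooled values both genes were thus higher in the MGE class within the most mature group, and higher in the most than in the least mature group within the LGE class. The latter did not hold in each mouse for *Mef2c*, as its LGE-class level in *Fmr1*-KO 2 was 203 CPM in the least and 165 CPM in the most mature group. LGE-class *Adcy1* was higher in the most mature group in each mouse. In *Fmr1*-KO 1 its levels were nearly equal, at 47.5 and 48.8 CPM from 9 and 10 UMIs.

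**Figure D4:**
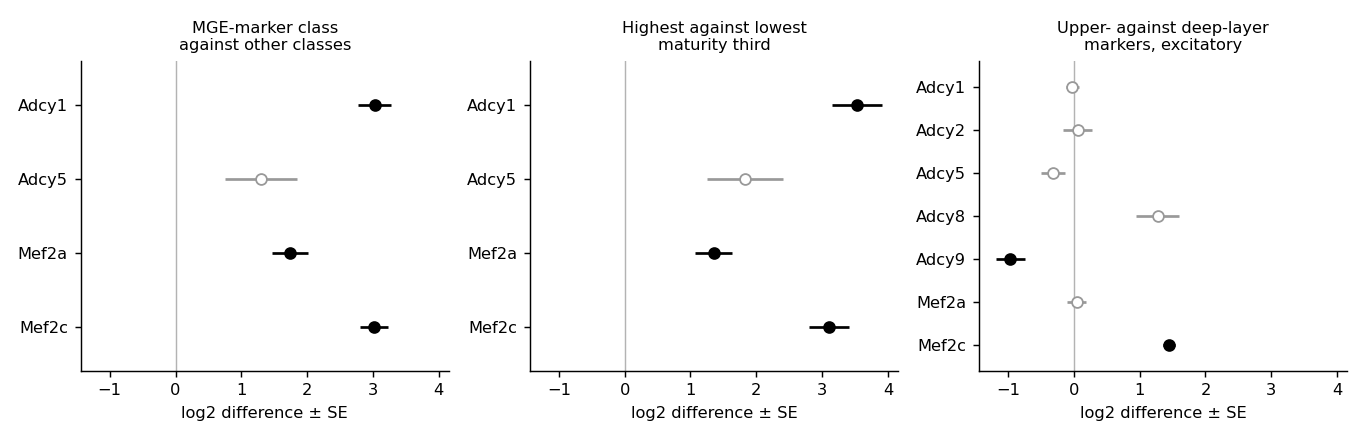
Log2 differences with SE of each member tested between MGE-class and other classed interneurons, between the most and least mature groups of interneurons, and between excitatory neurons with upper- and deep-layer markers. Filled points were called by edgeR at FDR under 0.01 and at least 1.15-fold; *Adcy1* and *Mef2c* are above 3 in both interneuron comparisons, and *Mef2c* but not *Adcy1* differs between layers.

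The genotype difference of both genes was then recomputed with the makeup of the interneurons held fixed, as a description. By least squares on log2(CPM + 1) with the batch term, all interneurons together gave -0.75 (SE 0.04) for *Adcy1* and -0.75 (SE 0.21) for *Mef2c*. When each mouse was given the same mix of the 4 clusters, the differences were -0.42 (SE 0.17) and -0.60 (SE 0.36). When, the other way round, each cluster was given 1 level over all mice and only the mix was left to vary, they were -0.28 (SE 0.22) and -0.21 (SE 0.15). Both values from the mix alone, like those at the same mix, had the sign of the difference over all interneurons. The SEs are given as a description, and the part of the mix in the difference was not tested.

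An equal mix of the MGE and LGE classes gave -0.23 (SE 0.44) for *Adcy1* and -0.52 (SE 0.55) for *Mef2c*, and an equal mix of the maturity groups -0.74 (SE 0.10) and -0.64 (SE 0.19). In Cluster14 alone the differences were -0.14 (SE 0.26) and -0.66 (SE 0.60), and without Cluster14 they were -0.48 (SE 0.37) and -0.24 (SE 0.27). In the most mature group they were -0.60 (SE 0.14) and -0.79 (SE 0.29). The sign was the same in each of these, but inside the batches it was not: for *Adcy1* in Cluster14 the log2 ratio was 0.15 in batch 1 and -0.39 in batch 2, and without Cluster14 it was -1.05 and 0.09. In the least mature and the middle group the difference of *Mef2c* was 1.58 (SE 1.56) and 0.17 (SE 0.61).

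**Figure D5:**
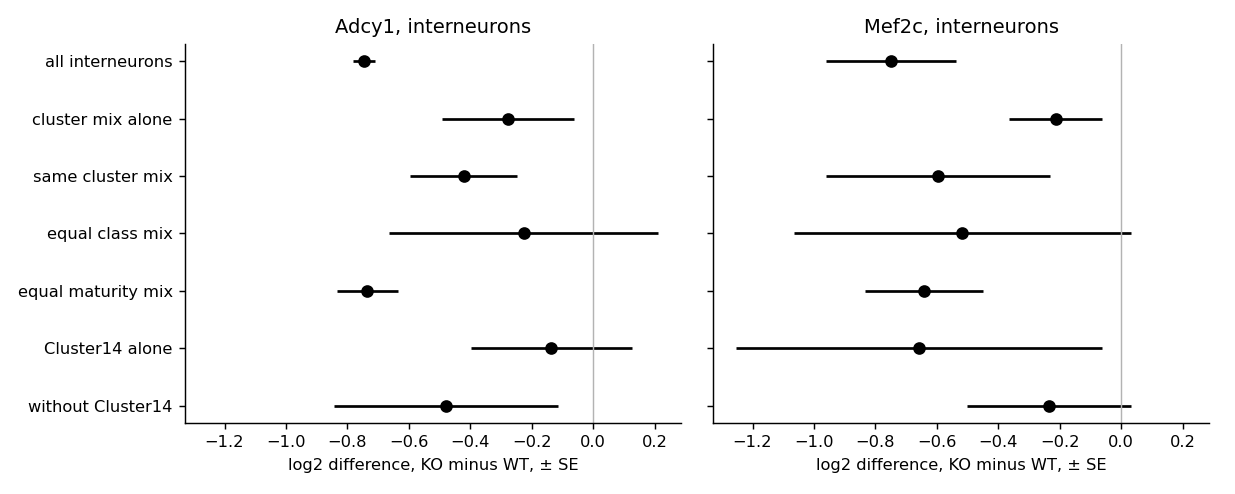
Log2 difference of *Fmr1*-KO from WT interneurons with SE for *Adcy1* and *Mef2c*, by least squares on log2(CPM + 1) with batch, for all interneurons, for the cluster mix alone, at fixed mixes of clusters, classes and maturity groups, and with and without Cluster14. For *Adcy1* the value goes from -0.75 in all interneurons to -0.14 in Cluster14 alone, and for *Mef2c* from -0.75 to -0.24 without Cluster14.

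In interneurons, marker sums of other classes and cells overlapped between the genotypes over the 6 mice. The 8 MGE markers summed to 850, 1487 and 1277 CPM in the WT and 411, 490 and 1394 CPM in the *Fmr1*-KO mice, and the mature neuron genes to 1832, 3098 and 3070 and 1628, 1928 and 2629 CPM, both with *Fmr1*-KO 3 among the high values. The LGE and olfactory markers ran the other way, with 3716, 1860 and 2552 and 4158, 3934 and 2878 CPM, and within each batch each knockout mouse was above each WT mouse, opposite to *Adcy1* and *Mef2c*. Excitatory neuron markers were at 415, 49.8 and 110 and at 228, 421 and 159 CPM, none of the 7 at 0, microglia markers at 0 to 65.5 CPM and astrocyte markers at 458 to 834 CPM. Their part in the genotype difference was not tested.

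Among excitatory neurons, which had the highest levels of both genes, the layers differed for *Mef2c*. Cells with more UMIs of upper-layer markers (such as *Cux2* and *Rorb*) were compared with those of deep-layer markers (such as *Bcl11b* and *Fezf2*) within the 6 mice. These were 621 and 505 cells, with medians of 4179 and 2905 UMIs. The other 47.9% of excitatory neurons, with a median of 898 UMIs, were given no layer and left out. *Mef2c* was at 2609, 3164 and 3429 CPM in upper-layer cells of the WT and 2043, 2352 and 3653 CPM in those of the *Fmr1*-KO mice, and at 794, 1332 and 1252 and 872, 955 and 1180 CPM in deep-layer cells, without overlap. The log2 difference was 1.45 (SE 0.09, edgeR FDR = 3.0e-10). *Adcy1* had 881 CPM in upper-layer and 943 CPM in deep-layer cells over all mice, with a log2 difference of -0.02 (SE 0.09, edgeR FDR = 0.97).

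*Adcy9* was lower in upper-layer cells, with a log2 difference of -0.96 (SE 0.23, edgeR FDR = 0.0087). It had 33.6, 32.4 and 34.0 CPM in upper-layer cells of the WT and 20.2, 57.2 and 23.4 CPM in those of the *Fmr1*-KO mice, each below the deep-layer cells of the same mouse (51.4 to 118 CPM). This call was lost with each mouse left out in turn (edgeR FDR from 0.012 to 0.042). *Adcy8* had a log2 difference of 1.27 (SE 0.33, edgeR FDR = 0.019) and was not called. Thus 2 of the 7 members tested were called, against 3.41% of all 8209 genes, of which 1.73% were higher and 1.68% lower in upper-layer cells. *Adcy2* (0.06, SE 0.22), *Adcy5* (-0.32, SE 0.18) and *Mef2a* (0.04, SE 0.14) were not called.

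Outside interneurons no member was called between the genotypes. The other 9 subtypes with at least 100 cells per genotype gave 13 tests, of 5 members in 7 subtypes, with log2 differences of knockout from WT between -0.38 and 0.17. edgeR called 0 of the 13 and gave an unadjusted p under 0.05 to 0 of them, the lowest p being 0.082 and the lowest FDR 0.53, and DESeq2 also called 0. Among all genes of these subtypes 0% were called in excitatory neurons, endothelial cells, microglia and pericytes, 0.0208% in Astrocytes_1, 0.0245% in OPC_1 and 0.0423% in oligodendrocytes, so that calls were rare for any gene. In ganglionic eminence cells (0.0499% of genes called) and Astrocytes_2 (0%) no member reached the share of cells needed for a test. An unadjusted p under 0.05 was given to 3.48% of genes in excitatory neurons, 4.72% in Astrocytes_1, 4.24% in OPC_1, 4.4% in oligodendrocytes, 3.12% in microglia, 3.29% in pericytes and 11% in endothelial cells. *Fmr1* itself was called where it was tested, in Astrocytes_1 (-2.15, SE 0.11, edgeR FDR = 7.7e-05) and OPC_1 (-1.78, SE 0.22, edgeR FDR = 0.0042).

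In excitatory neurons the log2 difference was -0.01 (SE 0.13) for *Adcy1*, 0.04 (SE 0.11) for *Mef2c*, -0.04 (SE 0.19) for *Adcy5* and 0.06 (SE 0.18) for *Mef2a*, each with edgeR FDR = 0.999. Upper-layer markers summed there to 1047, 851 and 931 CPM in the WT and 1090, 1071 and 1111 CPM in the *Fmr1*-KO mice. Mature neuron genes summed to 4899, 4878 and 5016 and to 4713, 4657 and 4256 CPM. Neither sum overlapped between the genotypes, whereas that of deep-layer markers did. Their part in these differences was not tested. The difference of *Adcy1* and *Mef2c* between interneurons and excitatory neurons was itself not tested. *Mef2c* differed by 0.17 (SE 0.17) in microglia, 0.10 (SE 0.20) in pericytes and -0.38 (SE 0.21) in endothelial cells. In these last cells it was at 192, 60.4 and 63.0 CPM in the WT and 122, 114 and 54.6 CPM in the *Fmr1*-KO mice, with the 3 batch 1 mice above the 3 of batch 2. *Mef2a* differed by -0.35 (SE 0.22) in microglia, and by -0.19 in endothelial cells and pericytes (SE 0.16 and 0.20). *Adcy2* differed by 0.12 (SE 0.18) in Astrocytes_1, and *Adcy1* by -0.29 (SE 0.21) in OPC_1.

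The other genes of the pathways were taken from lists of 73 genes (other adenylyl cyclases, G protein alpha subunits, protein kinase A, cAMP phosphodiesterases, CREB and other cAMP response factors, calmodulin, regulators and targets of Mef2). Between genotypes 0 of the 37 tested were called in excitatory neurons by edgeR, 0 had an unadjusted p under 0.05, and their median log2 difference was -0.01, against 0.00 over all genes. In interneurons, where the comparison had chosen the members, the 30 genes with enough cells had a median log2 difference of -0.0011. *Gnas*, the Gs subunit that activates cyclases, differed there by 0.02 (SE 0.09), *Prkacb*, a catalytic subunit of protein kinase A, by 0.04 (SE 0.13) and *Ppp3ca*, the catalytic subunit of calcineurin, by -0.08 (SE 0.15). The 6 Mef2 regulators had a median of -0.20, with *Ppp3r1*, the regulatory subunit of calcineurin, at -0.26 (SE 0.16).

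Many pathway genes differed with maturity. Between the most and least mature groups of interneurons 23 of the 54 pathway genes tested rose and 2 fell, where 11.9% of all 7305 genes rose and 7.79% fell, with a median log2 difference of 0.47 against 0.01 over all genes. The lists differed, from a median of -0.53 for the 7 cAMP response factors to 1.36 for the 5 Mef2 targets. *Gnal*, the Golf subunit that couples receptors to cyclases in striatal and olfactory neurons, rose by 3.23 (SE 0.35, edgeR FDR = 1.6e-10), and the inhibitory subunits *Gnai2* (-1.86, SE 0.16, edgeR FDR = 3.4e-13) and *Gnai3* (-1.29, SE 0.21, edgeR FDR = 3.8e-06) fell. The regulatory subunits of protein kinase A *Prkar1b* and *Prkar2b* rose by 1.83 (SE 0.23) and 1.92 (SE 0.26), and 4 of 8 phosphodiesterases, the enzymes that break cAMP down, rose as well, *Pde2a* by 2.67 (SE 0.42) and *Pde4a* by 2.68 (SE 0.52).

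Of the Mef2 genes outside the set, *Ppp3ca* rose by 1.83 (SE 0.17, edgeR FDR = 3.1e-12) with maturity and the known targets *Pcdh10* and *Nr4a1* by 2.44 (SE 0.29) and 2.21 (SE 0.34), as 3 of 11 regulators and 3 of 5 targets did, beside the 11.9% of all genes that rose. Among cAMP response factors 1 of 7, *Rapgef4*, was called (1.33, SE 0.30). In MGE-class against other interneurons 5 pathway genes of 54 were higher and 2 lower, beside 4.06% and 3.39% of all genes, with *Pde2a* (1.61, SE 0.35) and *Gnal* (1.21, SE 0.31) among the first and *Gnai2* (-1.42, SE 0.21) and *Hdac7* (-1.57, SE 0.44), a class IIa deacetylase, as the second. Between the layers of excitatory neurons *Pde8b* (1.55, SE 0.31) was higher and *Pcdh10* (-0.59, SE 0.13) lower in upper-layer cells.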

How the data were processed

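UMI counts of 17418 genes in 18393 cells from 17 libraries of 3 WT and 3 *Fmr1*-KO mice were analysed. The authors aligned reads to mm10 with TopHat2 2.0.14 (after bcl2fastq), counted UMIs per gene at the 3′ end with ESAT, set a minimum of 700 UMIs per barcode and deposited the counts without normalization. They also deposited the subtype and cluster of each cell.

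Doublets of the authors were left out, and counts were summed per mouse and subtype for mice with at least 10 cells. Genotypes were compared by edgeR 4.0.16 (quasi-likelihood test, TMM, batch term, R 4.3.3) for genes detected in 15% of cells or more, and classes, maturity groups and layers with the mouse as a block for genes in at least 5%, with Benjamini-Hochberg adjustment over all genes tested. Calls needed FDR under 0.01 and 1.15-fold. The mice are the replicates (n = 3 per genotype), each from 1 dissociated cortex. Classes needed 2 UMIs of the leading list, and maturity 5 UMIs. The excitatory genotype, MGE class, maturity and layer fits were tested on simulated data, with 200 genes changed by 1 on the log2 scale. They called 91.5, 17.5, 35.5 and 66.5% of these genes, with 2, 1, 0 and 0 false calls. Most changes of that size thus went uncalled in the MGE class and maturity fits. CPM are from these sums, with 1 CPM added before log2. Intervals cover counting error only. Replicates differed by more than sampling noise (chi-square per degree of freedom from 7.9 to 69.7).

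The members and lists were chosen with earlier results of these data known. The genes named are the members, *Fmr1*, markers, pathway genes called or highest in interneurons, and the 3 most similar genes per member. A few genes under this rule are left unreported. Python 3.11.15, numpy 2.4.6, pandas 2.3.3, scipy 1.17.1 and matplotlib 3.10.9 made tables and plots. Alternatives were DESeq2 1.42.0, other filters, scalings, thresholds and mixes, thinning to 700 UMIs, the replicate number as a block and each mouse left out.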

Additional observations from a re-analysis of the deposited data

How the results depend on the processing

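Of 258 recomputed values, 210 kept their direction and side of the threshold or, where there was no test, stayed within the spread between mice. The tests of *Adcy1* and *Mef2c* between interneuron classes and maturity groups, and of *Mef2c* between layers, were called under every alternative tried. The genotype tests of members outside interneurons gave 0 calls under each, also where wider gene filters gave 45, 46 or 70 tests in place of 13. An unadjusted edgeR p under 0.05 was given to 3, 3 and 6 of these. Without *Fmr1*-KO 3 it was given to 3 of the 13. The share of all genes under these settings was not compared. In interneurons the genotype difference of *Adcy1* (-0.75) was -1.39 without the batch term, -0.98 after thinning, -0.23 at an equal mix of marker classes and, in alternatives chosen after seeing the data, -0.42 at the same mix of clusters, -0.48 without Cluster14 and -0.14 in Cluster14 alone. That of *Mef2c* (-0.73) was -1.05 without the batch term, -0.27 after thinning and -0.24 without Cluster14. With 1 mouse left out they ranged from -0.77 to -0.73 and from -0.89 to -0.56. Causes were not tested.

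The replicate number as a block gave -1.41 for *Adcy1* and -1.07 for *Mef2c*. The numbers did not pair the mice, since the deviations of same-numbered mice correlated at 0.59, -0.28 and 0.52 in interneurons and replicate 2 came from different batches. In excitatory neurons the block turned the genotype difference of *Adcy1* to 0.19, *Adcy5* to 0.24, *Mef2a* to -0.069 and *Mef2c* to -0.16, and changed no call.

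Signs near 0 turned as follows. The layer difference of *Adcy1* was 0.017 without a filter, 0.31 after thinning and from -0.078 to 0.054 with 1 mouse left out. In excitatory neurons, without the batch term, genotype differences were 0.22 (*Adcy1*), 0.22 (*Adcy5*), -0.038 (*Mef2a*) and -0.14 (*Mef2c*). After thinning they were 0.12 (*Adcy5*), -0.19 (*Mef2a*) and -0.032 (*Mef2c*). With 1 mouse left out they ranged from -0.17 to 0.13, -0.13 to 0.064, -0.31 to 0.35 and -0.072 to 0.13, in that order of genes. *Mef2a* in interneurons was 0.40 after thinning and from -0.23 to 0.017 with 1 mouse left out. Between maturity groups *Adcy5* was called without TMM, without a filter and with 2 groups in place of 3. Keeping doublets was not run, since they carry no subtype. Few UMIs per mouse limit what was seen of *Adcy8*, *Adcy9* and *Mef2d*.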
